A study of Drosophila melanogaster with 4 samples.

Results

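The transcripts described here are those that the array names by cDNA clones of the adult testis library, written as AT and 5 digits. Such a target was taken from the scanner files by its clone name alone, whatever its signal, and 158 of the 26228 targets of the array were of this kind. Total RNA came from whole Drosophila melanogaster embryos of late stage 16 to early stage 17, raised at 25°C, in 2 grhIM pools and 2 wild-type pools of about 500 embryos each. The grhIM embryos were homozygous for a stop-codon allele of grainy head, a transcription factor of epidermal barriers, on a cn, bw, sp chromosome, and were picked by the lack of the fluorescent CKG balancer of the heterozygous stock. The wild-type embryos also carried cn, bw and sp, and in addition y, a body-colour allele, whereas the grhIM embryos were yellow+. Each pool was hybridised to 1 single-colour Agilent array.

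A testis clone is a cDNA that was once isolated from adult testis RNA. Its name says where a transcript was first sampled and not where it is confined, so housekeeping transcripts and transcripts of other organs occur in the library beside those of the male germ line. In Drosophila, primary spermatocytes transcribe many genes that few other cells use, under factors that include the testis meiotic arrest complex (tMAC), and spermatids then assemble the sperm tail and pack the sperm nucleus. The gonad of a late embryo holds primordial germ cells and somatic gonadal cells, but no spermatocytes yet. The array thus asks which testis clones had a measurable transcript in whole embryos, and whether those transcripts differed between grhIM and wild-type.

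Of the 158 testis clone targets, 25 could be named through the RefSeq gene table and 133 are given by their clone name only. The targets were measured by 179 probes, and 20 targets had more than 1 probe, of which the brightest over the 4 arrays stood for its target. In whole embryos a lower signal can mean fewer cells of a type or less RNA in each cell, and these cannot be told apart. The embryos were collected in duplicate, so the p-values below rest on the spread between pools, with only 2 of each genotype. The number of arrays limits their precision.

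Fewer than 1 in 2 testis clone targets gave a signal in grhIM embryos. A spot is marked as well above background by the scanner software where its signal stands clear of the local background, and that mark is used here as the measure of expression. The share of the 158 targets so marked was 43.7% and 47.5% on the grhIM arrays, against 48.7% and 58.9% on the wild-type arrays. Both grhIM shares were therefore below both wild-type shares, although grhIM 2 and wild-type 1 lay close together. The mean share was 45.6 ± 2.69% in grhIM and 53.8 ± 7.16% in wild-type (SD, n = 2 arrays each), a difference of −8.23 percentage points with an exact two-sided permutation p of 0.333, the smallest that 2 against 2 arrays can give.

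The testis clones stood lower than the other clone libraries on every array. Over all targets the share well above background was 74.5% and 78.8% in grhIM, against 76.4% and 82.2% in wild-type. Among the 250 targets named by adult head clones (GH, HL or RH) the shares were 87.2% and 91.6% in grhIM, against 90.8% and 94.4% in wild-type. Among the 241 targets named by embryo clones (LD or RE) they were 92.1% and 92.5% in grhIM, against 95.4% and 96.7% in wild-type. Each set had its highest share on the second wild-type array, and in each set both grhIM shares were below the share on that array. All gene spots had a median raw signal of 557 and 594 in grhIM, against 564 and 629 in wild-type. The dimmest testis target marked as above background had a processed signal of 22.7 and 16.4 on the grhIM arrays, against 17.3 and 11.5 on the wild-type arrays, so wild-type 2 was the brightest array and the one with the lowest mark. The 180 spots of testis probes had median raw signals of 69.5 and 73.5 in grhIM, against 71 and 79 in wild-type, while 153 negative-control spots had 53 and 55.5 in grhIM, against 53 and 57.5 in wild-type. The part of these array properties in the shares was not tested.

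**Figure D1:**
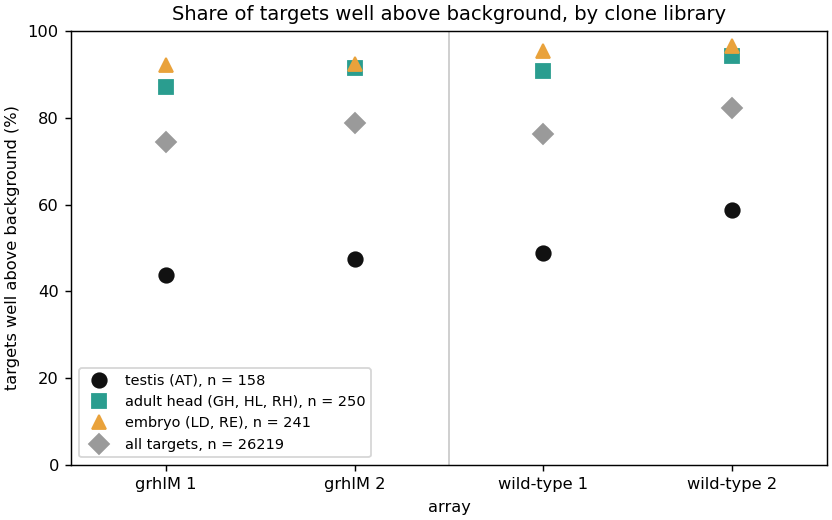
Share of targets well above background (%, axis from 0) on each of the 4 arrays, for testis clones, adult head clones, embryo clones and all targets, with 1 point per array. The testis clones lie between 43.7% and 58.9%, below every other set on every array, and each set is highest on wild-type 2.

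With both arrays of a genotype required, 68 testis clone targets (43.0%) were expressed in grhIM and 77 (48.7%) in wild-type. These counts rest on 1 value per genotype and have no test. Over all targets of the array, the same requirement gave 74.3% in grhIM and 76.2% in wild-type. With only 1 of the 2 arrays required, the testis counts were 76 in grhIM and 93 in wild-type. The gap in counts was thus 9 targets under the strict rule and 17 under the loose one.

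Most testis clone targets were either measurable everywhere or nowhere. On all 4 arrays, 65 targets were well above background, and on no array 63, or 39.9%. Only 7 targets were marked on 3 arrays, 10 on 2 arrays and 13 on 1 array. Of the 13, 1 was marked on grhIM 1 and 1 on grhIM 2, against 11 on wild-type 2 (84.6%). The same array held 79.4% of all targets marked on 1 array. Over all targets 16.6% were marked on no array, against 4.80% of the head clones and 3.32% of the embryo clones.

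**Figure D2:**
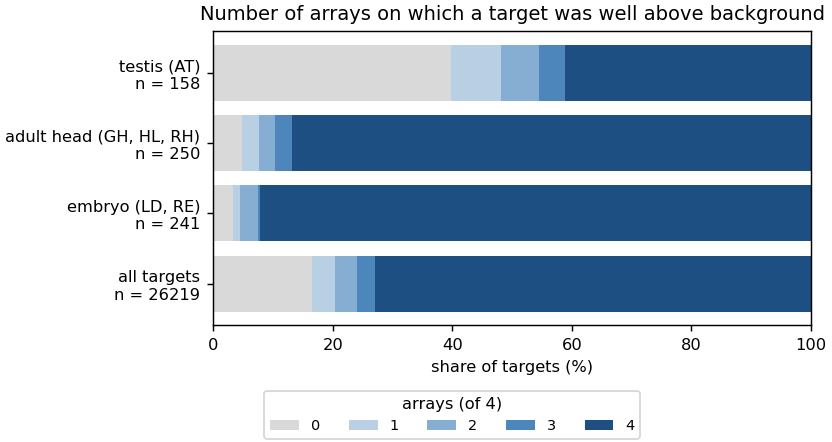
Share of targets (%) by the number of arrays, 0 to 4, on which they were well above background, for testis, adult head and embryo clones and all targets with a value. The share on no array is 39.9% for testis clones, 4.80% for head clones, 3.32% for embryo clones and 16.6% for all targets.

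By this rule 3 testis clones (1.90%) were expressed in grhIM and not in wild-type, and 12 (7.59%) in wild-type and not in grhIM. Of the 12, 8 were marked on neither grhIM array and 4 on grhIM 2 only. All 3 grhIM-only clones, AT21495, AT22983 and AT27059, were also marked on wild-type 2, so no testis clone was marked on both grhIM arrays and on no wild-type array. Of the 26219 targets with a value on the array, 99 were so marked, so their lack among 158 clones is near that share. Over all targets, 1.36% were expressed in grhIM and not in wild-type, and 3.30% in wild-type and not in grhIM. Targets marked on both wild-type arrays and on neither grhIM array were 5.06% of the testis clones and 1.24% of all targets.

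The signals are given from here on as log2 of the processed signal, which is the spot's intensity after subtraction of background, normalised over the 4 arrays by cyclic loess. One unit is a factor of 2 in signal. For the 65 clones marked on all arrays, the lowest, median and highest signals were 4.50, 8.58 and 17.17 on grhIM 1 and 4.75, 8.54 and 17.03 on grhIM 2, against 4.401, 8.69 and 16.95 on wild-type 1 and 4.29, 8.73 and 17.10 on wild-type 2. For the 63 clones marked on no array they were 1.72, 2.06 and 3.54 on grhIM 1 and 1.59, 1.97 and 3.99 on grhIM 2, against 1.69, 2.04 and 4.03 on wild-type 1 and 1.33, 1.76 and 3.67 on wild-type 2. The medians of the clones marked on all arrays lay within 0.2 of one another across the 4 arrays.

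Genotypes were compared with limma over all 20349 targets that were well above background on both arrays of at least 1 genotype, and a target was called at a Benjamini-Hochberg adjusted p under 0.01. The p-values and SEs of limma are moderated: they draw on the spread of the target's own pools and on that of all tested targets. A clone with a very small own spread thus has a larger SE than its pools alone would give. Of the 158 testis clone targets 80 entered this test, and the 78 others were too dim in both genotypes. Among the 80, 15 were called, or 18.8%, against a background of 9.24% of all tested targets. Of these, 7 were higher in grhIM (8.75%, against 4.03% of all targets) and 8 were lower (10%, against 5.21% of all targets). Scaling the arrays to their 75th percentile turned this split to 8 higher and 6 lower. At an adjusted p under 0.05, 27 testis clones passed (33.8%, against 20.8% of all targets).

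The groups of arrays were also compared without a model. Both grhIM arrays lay above both wild-type arrays for 27 of the 80 clones (33.8%, against 30.7% of all tested targets), and below both for 32 (40%, against 33.6%). These shares are near the background. Among the head clones 15.9% of 227 tested targets were called, and among the embryo clones 9.57% of 230.

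The size of the differences was larger in the testis clones than over all targets. The median absolute difference was 0.49 on the log2 scale for the 80 clones and 0.26 for all tested targets, and 26.3% of the clones, or 21, differed by at least 2-fold, against 11.5% of all. Head clones were also above all targets, with a median of 0.36 and 16.7% at least 2-fold, while embryo clones had 0.24 and 11.3%. The filter admits clones through 1 genotype alone, which favours those brighter in it, so the 65 clones marked on all 4 arrays are given too. Of these, 10 were called, 6 higher and 4 lower in grhIM, and 13 differed by at least 2-fold (20%, against 9.25% of all targets so marked). Their median difference was −0.001 and their median absolute difference 0.37, against 0.24 for all. When only targets marked on all 4 arrays were fitted, the same 10 clones were called (15.4%, against 8.54% of all).

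The testis clones were also somewhat less repeatable between pools. The median gap between the 2 arrays of a genotype was 0.18 for grhIM and 0.27 for wild-type over the 80 clones, against 0.11 and 0.20 over all tested targets. A gap above 1 was found for 0 clones in grhIM and for 4 in wild-type, which were AT21495, AT02774, AT14183 and AT03263.

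**Figure D3:**
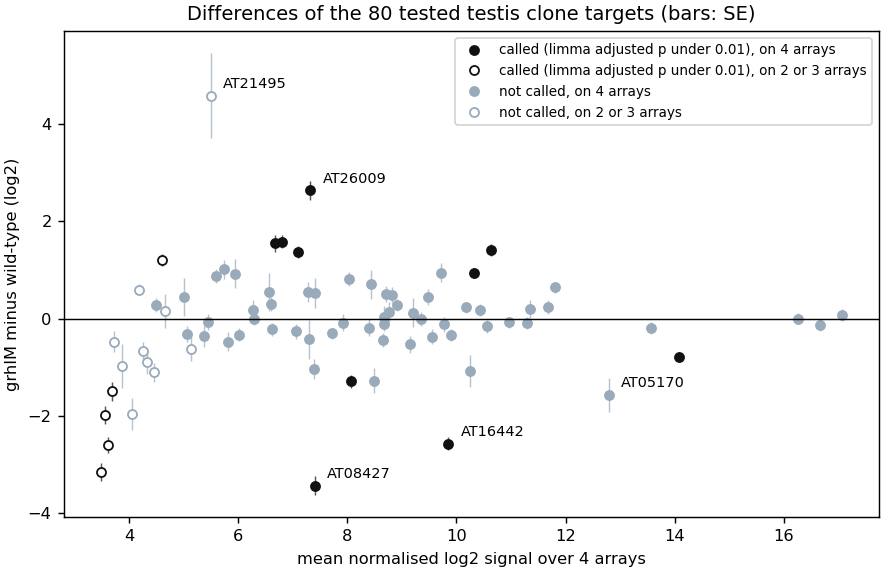
Difference between genotypes (grhIM minus wild-type, log2, with its SE) of the 80 tested testis clones against their mean normalised log2 signal over the 4 arrays, with called clones in black. Open symbols mark clones marked on only 2 or 3 arrays, and the differences run from −3.43 (AT08427) to 4.58 (AT21495, not called).

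The falls in grhIM are described first, from the clones that were marked on every array. AT16442 had log2 signals of 8.60 and 8.54 in grhIM, against 11.04 and 11.24 in wild-type. The pools of each genotype lay within 0.2 of each other, and the genotypes were far apart. The difference was −2.57 ± 0.13 (SE), or 5.93-fold lower in grhIM (limma adjusted p 0.000551). AT16442 was called under every alternative but one, since without wild-type replicate 1 its adjusted p by limma was 0.0124.

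AT08427 had 5.59 and 5.78 in grhIM, against 9.34 and 8.89 in wild-type, and was 10.8-fold lower at −3.43 ± 0.19 (SE, limma adjusted p 0.000692). This was the largest fall among the called clones. A second probe for the same clone name did not fall, with 6.43 and 6.27 in grhIM, against 6.21 and 5.97 in wild-type, a difference of 0.26 ± 0.14 (SE, limma adjusted p over probes 0.278). The 2 probes of AT08427 thus disagreed, and the mean over both gave −1.59.

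AT11348 had 7.55 and 7.29 in grhIM, against 8.69 and 8.73 in wild-type, and was 2.44-fold lower, a difference of −1.29 ± 0.14 (SE, limma adjusted p 0.00439). AT16518 had 13.68 and 13.70 in grhIM, against 14.48 and 14.49 in wild-type. Its pools differed by 0.02 or less, and its fall of −0.79 ± 0.11 (SE, 1.73-fold, limma adjusted p 0.00893) was the smallest of the called changes. The second probe of AT16518 fell by 0.63 in grhIM (11.19 and 11.21, against 11.91 and 11.76 in wild-type, limma adjusted p over probes 0.0235). The call of AT16518 was lost under 9 of its 16 alternatives, among them 75th percentile scaling, no normalisation, the mean over its probes and the loss of any 1 array.

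A further 4 called clones were well above background on both wild-type arrays and on neither grhIM array. They entered the test through wild-type alone, so their adjusted p sets marked signals against signals not told apart from background. For these the fold sets the wild-type mean against a grhIM floor, averaged over both arrays. On each array the floor is the dimmest signal of any probe marked as above background there, or the clone's own signal where that is higher. Testis targets with processed signals of up to 28.1 on grhIM 1 and 19.1 on grhIM 2 were left unmarked. The folds hold against this floor only and are not strict lower bounds. AT01380 had 2.09 and 1.74 in grhIM, against 5.21 and 4.92 in wild-type, a 3.75-fold fall to the floor (limma adjusted p 0.000767). AT28783 had 2.49 and 2.12 in grhIM, against 4.85 and 4.96 in wild-type, a 3.35-fold fall to the floor (limma adjusted p 0.00103). In both clones the grhIM signals were those of a spot without measurable RNA.

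AT07779 had 2.34 and 2.77 in grhIM, against 4.43 and 4.65 in wild-type, a 2.61-fold fall to the floor (limma adjusted p 0.00302). AT14585 had 3.14 and 2.75 in grhIM, against 4.30 and 4.59 in wild-type, a 2.44-fold fall to the floor (limma adjusted p 0.00721). These 4 clones were dim in wild-type too. On the raw median signal, with background kept, none of the 4 was called. The measured differences were then −0.82 for AT01380, −0.41 for AT28783, −0.34 for AT07779 and −0.29 for AT14585. Each was smaller in size than the clone's fall to the floor on the processed signal. The call of AT14585 was lost under 8 of 14 alternatives, among them 75th percentile scaling and quantile normalisation.

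The largest called rise was in AT26009, which had 8.90 and 8.38 in grhIM, against 6.04 and 5.98 in wild-type. The groups were separated by over 2 units, more than the gap of 0.52 between the grhIM pools. It was 6.21-fold higher in grhIM, a difference of 2.63 ± 0.20 (SE, limma adjusted p 0.00159). On normexp-corrected median signals the rise of AT26009 was 1.36 and was not called (limma adjusted p 0.0824).

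AT27305 had 7.57 and 7.64 in grhIM, against 5.92 and 6.12 in wild-type, a rise of 1.58 ± 0.13 (SE, 2.99-fold, limma adjusted p 0.00184). AT09966 had 7.46 and 7.44 in grhIM, against 6.12 and 5.68 in wild-type, a rise of 1.55 ± 0.18 (SE, 2.93-fold, limma adjusted p 0.00538). Both were about 3-fold higher, and in both the wild-type pools were further apart than the grhIM pools. On the raw median signal these rises were 0.97 for AT27305 and 1.01 for AT09966, and both stayed called.

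AT08919 had 11.29 and 11.40 in grhIM, against 9.88 and 9.98 in wild-type, a rise of 1.41 ± 0.12 (SE, 2.65-fold, limma adjusted p 0.00209). AT08919 was 1 of the 2 clones still called on normexp-corrected median signals, the other being AT16442. AT30755 had 7.86 and 7.68 in grhIM, against 6.45 and 6.37 in wild-type, a rise of 1.36 ± 0.12 (SE, 2.57-fold, limma adjusted p 0.00273). AT19280 had 10.82 and 10.78 in grhIM, against 9.85 and 9.86 in wild-type, a rise of 0.94 ± 0.11 (SE, 1.92-fold, limma adjusted p 0.00551). In all 3 the arrays of a genotype agreed within 0.2, but the call of AT19280 was lost under 7 of its 16 alternatives, among them no normalisation and the loss of any 1 array.

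The remaining called rise, AT22983, was well above background on both grhIM arrays and on 1 of the 2 wild-type arrays. This clone entered the test through grhIM alone. It had 5.16 and 5.26 in grhIM, against 3.91 and 4.11 in wild-type, a rise of 1.20 ± 0.13 (SE, limma adjusted p 0.00439). It lay near background and fell to 0.31 on the raw median signal, where it was not called.

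**Figure D4:**
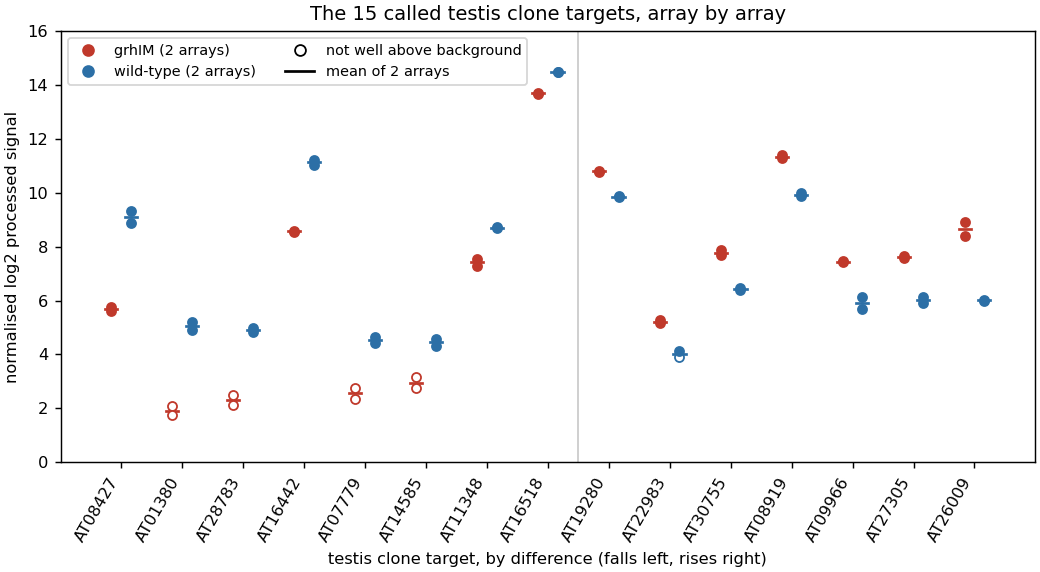
Normalised log2 processed signal of the 15 called testis clones on each array, grhIM in red left of wild-type in blue, with a bar at the mean of 2 arrays and open symbols for spots not well above background. In all 15 the genotypes do not overlap, with 8 clones lower in grhIM (left of the line) and 7 higher (right of the line). The clones were called on these same arrays, so their separation is not a further result. Of all tested targets, 30.7% were separate and higher in grhIM and 33.6% separate and lower.

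The calls depended on which arrays were used. Without wild-type replicate 1, 0 testis clones were called by limma (smallest adjusted p 0.0124, 43 at an unadjusted p under 0.05), as were 0 of all targets. Without wild-type replicate 2, 7 were called, 6 of them among the 15, as were 4.71% of all targets. On normexp-corrected signals 2 of 80 were called, a share no higher than the 2.67% of all targets.

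The clone nearest the threshold on the other side was AT07490, at an adjusted p of 0.0156 by limma against 0.00893 for AT16518 on the inside. Between adjusted p values of 0.01 and 0.05 lay 12 clones. Of these, AT31631 was among the most repeatable, with 12.14 and 12.12 in grhIM, against 11.45 and 11.52 in wild-type (0.64 ± 0.11, SE, limma adjusted p 0.0180). AT21877 was lower by similar amounts on both its probes, with differences of −1.27 ± 0.26 and −1.21 ± 0.28 (SE, limma adjusted p over probes 0.0306 and 0.0393). AT05170 had 11.52 and 12.50 in grhIM, against 13.75 and 13.40 in wild-type, a difference of −1.56 ± 0.35 (SE, limma adjusted p 0.0382), and its grhIM pools were 0.99 apart. These clones were picked out after their values were seen.

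The largest difference of any tested testis clone on the processed signal was not called. AT21495 had 7.55 and 8.02 in grhIM, against 1.87 and 4.53 in wild-type, where only the second array was well above background. The wild-type pools differed by 2.66, so that a difference of 4.58 ± 0.87 (SE) had a limma adjusted p of 0.0237. Both grhIM arrays nevertheless lay above both wild-type arrays by over 3 units. AT21495 is singled out after its values were seen, and its difference rests on a wild-type array that was not above background. On the raw median signal it was 2.11 and was called (limma adjusted p 0.00123), and was then smaller in size than those of AT08427 (−2.56) and AT16442 (−2.39).

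The 5 testis clones with the brightest probes differed little between genotypes, apart from AT16518. Probes differ in how well they hybridise, so brightness does not order transcripts by amount. AT02754 had 17.17 and 17.03 in grhIM, against 16.95 and 17.10 in wild-type. AT25373 had 16.66 and 16.53 in grhIM, against 16.66 and 16.81 in wild-type. AT02348 had 16.33 and 16.22 in grhIM, against 16.22 and 16.32 in wild-type. In all 3 the genotypes overlapped, and the differences were 0.07, −0.14 and −0.001 (limma adjusted p 0.728 for AT02754, 0.489 for AT25373 and 0.996 for AT02348). AT15050 had 13.50 and 13.46 in grhIM, against 13.59 and 13.74 in wild-type, a difference of −0.19 ± 0.12 (SE, limma adjusted p 0.329), and the fifth, AT16518, is the called clone given above.

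Where a clone had 2 tested probes, the probes are a second measurement of the same RNA and not a replicate. This held for 9 clones, and in 8 of them both probes moved in the same direction. The exception was AT08427. In AT28829, AT04665 and AT03385 a probe's difference was smaller than its SE, so a shared sign says little there. The share of such pairs over all targets was not taken. The largest other gap was in AT27571, with −0.48 ± 0.20 on the brighter probe and −0.80 ± 0.30 on the dimmer one (SE).

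**Figure D5:**
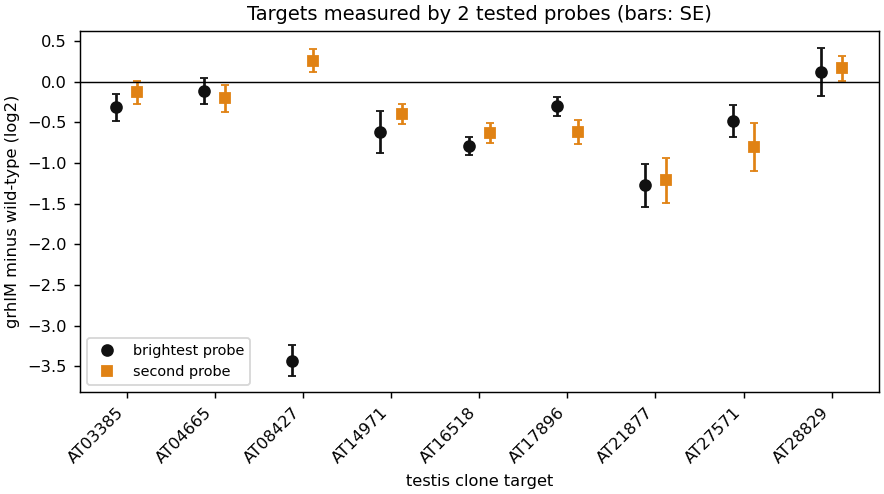
Difference between genotypes (grhIM minus wild-type, log2, with its SE) for both probes of the 9 testis clones with 2 tested probes, the brightest probe in black and the second in orange. The probes of AT08427 lie at −3.43 and 0.26, and the probes of the 8 other clones share a sign.

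Of the 25 testis clones with a gene name, 8 were tested and 0 were called by limma (3 had an unadjusted p under 0.05, and 2 an adjusted p under 0.05). With 9.24% of all tested targets called, 8 clones are too few to set the named ones apart. All 15 called clones were therefore among the 133 without a name. The named clones that were tested lie on chromosome arms 2R (3), 3L (3) and 3R (2).

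CG9133 (AT07490) was highest in its difference, with 6.09 and 5.98 in grhIM, against 5.29 and 5.01 in wild-type, or 0.88 ± 0.14 (SE, 1.85-fold, limma adjusted p 0.0156). CG30357 (AT27059) had 4.50 and 4.44 in grhIM, against 3.91 and 3.84 in wild-type, where 1 of the 2 arrays was well above background (0.59 ± 0.11, SE, limma adjusted p 0.0230). Both clones had separate groups and did not pass the threshold of 0.01. Drep3 (AT08574), of the family of DNA fragmentation factor-related proteins, had 9.07 and 8.87 in grhIM, against 8.64 and 8.28 in wild-type (0.51 ± 0.17, SE, limma adjusted p 0.104). CG7650 (AT27057) had 9.04 and 9.07 in grhIM, against 8.72 and 8.84 in wild-type (0.28 ± 0.11, SE, limma adjusted p 0.160).

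Among the named clones with lower means in grhIM, CG11333 (AT02774) was well above background in wild-type only, with 3.18 and 3.57 in grhIM, against 5.0 and 3.70 in wild-type (limma adjusted p 0.198). Its wild-type pools were 1.30 apart. The antisense RNA gene asRNA:CR31429 (AT27571) had 5.48 and 5.66 in grhIM, against 5.80 and 6.29 in wild-type (−0.48 ± 0.20, SE, limma adjusted p 0.162), and its strand-specific level rests on the probe's design, which was not examined here. CG8204 (AT23078) had 9.48 and 9.27 in grhIM, against 9.85 and 9.63 in wild-type (−0.37 ± 0.15, SE, limma adjusted p 0.150). Ten-m (AT25108), a teneurin of the cell surface that guides synaptic partner matching, had 8.17 and 8.42 in grhIM, against 8.66 and 8.31 in wild-type (−0.19 ± 0.17, SE, limma adjusted p 0.497). It was the 1 named clone of the 8 whose groups overlapped. The others were separate, 4 higher and 3 lower in grhIM, as were 30.7% (higher) and 33.6% (lower) of all tested targets. With 8 clones these shares cannot be told apart.

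The other 17 named clones were not tested. Of these, 14 were well above background on no array, among them Vha100-3, an a subunit of the vacuolar proton pump, with 1.77 and 1.64 in grhIM, against 1.74 and 1.35 in wild-type. The clone named puf, a ubiquitin-specific protease, had 1.87 and 2.02 in grhIM, against 2.40 and 3.13 in wild-type. These are signals at background, and they do not show that the genes were silent, since 1 probe may miss an embryonic transcript form. CG31867, CG31870, CG13526, CG12126, CG32148, CG30284, CG15605, asRNA:CR30267, CG13474, CG30376, CG3748 and CG31093 were likewise at background. CG31952 and CG33140 were marked on wild-type 2 alone.

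The named clone closest to the spermatocyte programme was wuc (AT27450), which encodes a LIN-52-related subunit of tMAC. It had 4.11 and 4.30 in grhIM, against 3.90 and 3.95 in wild-type, and was well above background on the second array of each genotype only. It was therefore not tested, and its level lies at the edge of what the array measures.

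Other genes known for male germ cells were read only from a list chosen with earlier results of these data known. Named targets outside the list were not read for this. The list held 72 entries for spermatocyte and spermatid genes, some of them synonyms of one another. Only 1 could be named on the array, TTLL1A, a tubulin tyrosine ligase-like gene, through a target that is not a testis clone. It had 7.62 and 7.80 in grhIM, against 11.71 and 11.42 in wild-type, and was called lower (−3.86 ± 0.15, SE, limma adjusted p 0.000349). One gene says nothing of the rest of the list. Of 5 somatic gonad genes 2 could be named, and neither was called. The zinc finger factor zfh1 differed by −0.54 ± 0.12 and the transcriptional coactivator eya by 0.89 ± 0.15 (SE, limma adjusted p 0.0404 for zfh1 and 0.0160 for eya), and both genes also act outside the gonad. Of the 7 germ cell genes of the list 0 could be named, so germ cell content was not analysed here. Of 3 male dosage compensation genes 2 could be named, roX1 and roX2, noncoding RNAs that males make to compensate the X chromosome, each through 2 targets. The roX1 targets had 12.95 and 12.87 in grhIM, against 13.42 and 13.29 in wild-type, and 14.77 and 14.76 in grhIM, against 14.97 and 14.91 in wild-type. The roX2 targets had 10.59 and 10.47 in grhIM, against 10.45 and 10.44 in wild-type, and 11.57 and 11.59 in grhIM, against 12.02 and 11.99 in wild-type. The differences of these 4 targets ran from −0.45 to 0.09, with limma adjusted p from 0.0528 to 0.638, and none was called. Of 7 epidermis and cuticle genes 3 could be named and all 3 had lower means in grhIM, with Cpr60D (−7.09 ± 0.15) and obst-B (−1.98 ± 0.12) called and Acp65Aa (−1.68 ± 0.30, SE, limma adjusted p 0.0197) not. These 3 do not stand for the list. Among its unnamed genes, the study reported pale (ple) as higher in grhIM and knickkopf (knk) as lower. None of the muscle (3), nervous system (3) and gut (2) genes of the lists could be named.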

How the data were processed

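Single-colour Agilent arrays of 2 grhIM and 2 wild-type pools were used. The deposited scanner files hold linear intensity made by the authors with Feature Extraction 10.7.3.1 on a dm3 grid, as the headers state, background-subtracted and not scaled between arrays. Other deposited columns hold flags, such as well above background. A deposited table holds the authors' normalised intensity for 24684 probes. The filter on its probes is not stated in the sources used here. On the array, 15 of 32162 probes had only flagged spots and were left out. The spots of a probe were averaged, and a probe was well above background where at least 50% of its spots were. Log2 signals of the 4 arrays were normalised by cyclic loess with a span of 0.7 and 3 iterations, after the study's joint loess normalisation. Probes well above background on both arrays of a genotype were kept, and the brightest stood for its target. The tests used limma 3.58.1 (R 4.3.3), with 1 term for genotype and Benjamini-Hochberg adjustment over all targets, after a check on simulated data.

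The rule took up to 8 rises and up to 8 falls of called clones marked on all arrays (6 and 4 qualified). It also took up to 3 folds against a floor in each direction (3 falls and no rise) and the 5 brightest clones. Named clones were taken where they were called or had the 3 largest differences in each direction. The other called clones, AT14585 and AT22983, were added after their values were seen. Members and lists were chosen with earlier results of these data known. A RefSeq table for another build gave names to 1.29% of probes. No coordinates were used. Alternatives covered scaling, background, filters, probe rules, thresholds, the replicate block and leaving out each array. Normexp on the mean signal was replaced by the median signal after the files were seen.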

Additional observations from a re-analysis of the deposited data

How the results depend on the processing

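Between 0 and 18 testis clones were called when 1 array was left out (11 without grhIM 1, 18 without grhIM 2, 0 without wild-type 1, 7 without wild-type 2), against 15 with all 4. The same settings called 5.46%, 8.54%, 0% and 4.71% of all targets. Normexp on the median signal, chosen after seeing the data, gave 2 calls of 80, a share no higher than the 2.67% of all targets. No filter on dim probes gave 8 of 158 (3.37% of all targets), and an adjusted p under 0.05 gave 27 (20.8% of all targets). With the replicate block 25 clones were called, the 15 included, and 14.5% of all targets, against 9.24% without it. Equal numbers are not said to share a batch, and same-numbered deviations correlated at 0.17 over the testis clones and 0.25 over all tested targets, from 2 pairs. The other settings gave 10 to 16 calls. The testis count expressed on both arrays was 68 in grhIM and 77 in wild-type under the other probe and spot rules. When 1 array was left out, it was 68 to 75 in grhIM and 77 to 93 in wild-type, with 93 where wild-type 2 stood alone.

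Over 576 comparisons of single clones with an alternative, 463 kept their direction and side of the threshold, 69 lost a call and 38 gained one. In 6 the direction turned, 0 of them in a called clone. AT02348, at −0.00127, turned to 0.0473 with 75th percentile scaling and 0.00452 with no normalisation, and ranged from −0.0625 to 0.0671 with 1 array left out, above 0 without grhIM 2 and without wild-type 2. AT02754, at 0.07, turned to −0.00113 with normexp and ranged from −0.0166 (without wild-type 1) to 0.156 with 1 array left out. The cause was not tested. In the called clones 23 values moved by over 1.5 times, 22 of them on raw, normexp or deposited signals. The part of background and of the number of pools in these moves was not tested.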

Other observations

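Some testis clones outside the test moved alike on both their probes, and AT24752 is an example. AT24752 was well above background on no array. Its brighter probe had 3.23 and 3.99 in grhIM, against 2.04 and 1.58 in wild-type, and its other probe had 3.54 and 3.44 in grhIM, against 1.80 and 1.30 in wild-type. Both grhIM arrays lay above both wild-type arrays on each probe. The same held for AT28101, also marked on no array, with differences of 0.32 and 0.56, so this is not particular to AT24752. No fold is given, since no spot of either clone was marked as well above background. Both clones were picked out after their values were seen.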
